A study of Mus musculus with 16 samples.

Results

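The 10 genes described here, which reactive astrocytes of the mouse brain are known to switch on, were followed through hippocampal RNA sequencing of 16 libraries. They were taken by name from the rows of the deposited count table: Serpina3n, Lcn2, Timp1 and Cp encode secreted proteins, Cd44, Osmr and Emp1 encode membrane proteins, and Hspb1, S100a10 and Aspg encode proteins found mainly inside the cell. All 10 were among the 49315 genes of the table. They were chosen with earlier results of these data known, so their counts beside the shares over all genes are a description. Lcn2 did not pass the filter on low counts, which left 9 of the 10 among the 17469 genes tested.

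The study crossed genotype with diet in 4 groups of 4 libraries: wild type and Kcna1 knockout, each fed either a standard or a ketogenic diet. Kcna1 codes for a subunit of a voltage-gated potassium channel, whose loss causes epilepsy in mice, and a ketogenic diet is rich in fat and poor in carbohydrate. The sources used here give no strain, age, sex, targeted allele or time on the diet, and the libraries are named below by the animal tags of their columns. Whether each library came from a separate animal is not stated beyond those tags, so p-values measure the spread between libraries.

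An astrocyte that meets injury, seizure or inflammation takes on a reactive state, in which it builds up filaments of GFAP and vimentin and changes what it secretes and displays. Cytokines that signal through the shared receptor gp130 and the transcription factor STAT3 drive much of this programme, and OSMR is one of the receptor chains that pair with gp130. Some of the secreted products act on proteases and iron outside the cell, and CD44 binds the matrix sugar hyaluronan. In whole tissue, fewer cells of a type and less RNA per cell cannot be told apart.

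Sequence from before the RefSeq start site is shown for 3 of the genes. Serpina3n was the most abundant, and Emp1 was one of the genes highest in a single knockout library on the ketogenic diet, KC913RR. Cp, like Lcn2, was not raised in that library. Emp1 was also the only gene with a STAT motif in its window, and Cd44, Timp1 and Hspb1 were further above the wild type median in KC913RR. RefSeq windows on GRCm38.p6, of 250 bases before to 50 bases after a start site, were present for 9 of the 10 genes (11 windows), and S100a10 was the gene with no window. The sequences printed are the stretch before the start site that holds no exon of any gene in GENCODE M21: Serpina3n at chr12:104406458-104406707 on the plus strand, Emp1 at chr6:135362708-135362903 on the plus strand and Cp at chr3:19956804-19957053 on the plus strand. The Emp1 stretch lies inside the GENCODE gene, in an intron after its first exon, since GENCODE starts the gene further upstream than this RefSeq start. Capitals mark matches, on either strand, to the letters TTCNNNGAA (a STAT motif), TGANTCA (AP-1) or TTGCNNAA (C/EBP).
Serpina3n: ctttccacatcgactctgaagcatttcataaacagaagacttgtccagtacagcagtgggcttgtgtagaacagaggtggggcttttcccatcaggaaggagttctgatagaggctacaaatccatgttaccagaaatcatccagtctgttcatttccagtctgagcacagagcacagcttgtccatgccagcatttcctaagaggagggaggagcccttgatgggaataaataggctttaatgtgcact
Emp1: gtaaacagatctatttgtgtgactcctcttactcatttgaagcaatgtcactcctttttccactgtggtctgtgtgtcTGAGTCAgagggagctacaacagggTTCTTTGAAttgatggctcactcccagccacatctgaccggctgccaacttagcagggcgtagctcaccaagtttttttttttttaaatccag
Cp: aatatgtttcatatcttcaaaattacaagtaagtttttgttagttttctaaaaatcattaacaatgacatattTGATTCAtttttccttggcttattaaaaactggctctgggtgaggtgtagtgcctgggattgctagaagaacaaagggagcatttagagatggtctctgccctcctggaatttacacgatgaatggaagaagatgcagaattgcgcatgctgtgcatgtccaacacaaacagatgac
The STAT letters were found in 1 of the 11 windows, that of Emp1, where one match began 120 bases before the start site and another 22 bases before it. Among all 32851 RefSeq windows of 300 bases, 8.3% held these letters. The narrower form TTCCNGGAA, a stricter form of the same motif, was in 0 of the 11 windows and in 1.15% of all windows. AP-1 letters were found in 3 of the 11 windows, those of Emp1, Cp and Osmr, against 7.81% of all windows, and the Emp1 match 25 bases before the start overlapped its second STAT match. C/EBP letters were found in 2 windows, of Lcn2 and Cp, against 10.8% of all windows. Serpina3n, Cd44, Timp1, Hspb1 and Aspg had 0 matches in their windows.

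Total counts per library ranged from 13440230 to 22309504, and levels are given as CPM (a gene's counts over the library's total, on the counts-per-million scale), with library sizes scaled by TMM factors. The targeted gene, Kcna1, lay between 107 and 130 CPM in the 8 wild type libraries and between 43.4 and 47.2 CPM in 7 libraries labelled knockout. The remaining library labelled knockout, KC888LL on the standard diet, had 82.0 CPM and goes against its label in part, so values without it are given beside results that it moves most. Gfap, the main astrocyte filament gene, ranged from 294 to 390 CPM in wild type libraries. In knockout libraries on the standard diet Gfap stood at 2327 in KC872RL, 1340 in KC873RR, 348 in KC888LL and 611 in KC893RL. Under ketogenic feeding it stood at 2018 in KC913RR, 288 in KC916RRL, 1059 in KC934R and 295 in KC935LL. The Y-linked gene Ddx3y was between 56.5 and 65.1 CPM in KC890RL, KC872RL, KC873RR and KC846L, that is in 1 wild type and 2 knockout libraries on the standard diet and in 1 wild type library on the ketogenic diet, and at most 1.63 CPM in the others. Lists of 9 neuron genes and of 14 general astrocyte genes had 0 members at 0 in every library, with summed levels of 5848 to 7559 CPM and 5821 to 8166 CPM.

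Among the secreted products, Serpina3n carried the highest level and the clearest split of the knockout libraries. It encodes a serine protease inhibitor and lies at chr12:104406729-104414329 on the plus strand (ENSMUSG00000021091, 5 exonic intervals). Wild type libraries read 44.0 (KC890RL), 45.2 (KC894RLL), 49.5 (KC897RR) and 37.6 CPM (KC900RLL) on the standard diet. With the ketogenic diet the wild type read 39.7 (KC842L), 42.8 (KC843RL), 42.3 (KC844RR) and 46.3 CPM (KC846L). Wild type levels of Serpina3n were thus close together on both diets. Knockout libraries on the standard diet read 260.1 (KC872RL), 157 (KC873RR), 40.7 (KC888LL) and 85.5 CPM (KC893RL). Those on the ketogenic diet read 179 (KC913RR), 48.3 (KC916RRL), 125 (KC934R) and 45.9 CPM (KC935LL). Of the knockout libraries, 5 (3 on the standard and 2 on the ketogenic diet) lay above all 8 wild type libraries, and the other 3 lay within the wild type range, so the groups overlapped on both diets, under standard feeding through KC888LL alone. Those 5 libraries are also the ones whose Gfap exceeded every wild type library, and the order of the 5 was the same for both genes. Group means were 136 ± 95.7 CPM (knockout) and 44.1 ± 4.91 CPM (wild type) under standard feeding, and 99.5 ± 64.4 CPM and 42.8 ± 2.72 CPM in the same order under ketogenic feeding (SD, n = 4 each). The first of these means was 168 ± 87.8 CPM (SD, n = 3) without KC888LL.

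Serpina3n had a fitted log2 fold change, knockout over wild type, of 1.63 ± 0.54 (SE) under standard feeding, with an edgeR adjusted p of 0.226. Only 0.298% of tested genes had a higher value in that comparison. Without KC888LL, the library whose Kcna1 goes against its label, the log2 fold change was 1.92 and the edgeR adjusted p was 0.0388, which passes the threshold of 0.05, but in that fit 5.73% of all genes passed, against 0.00572% with all libraries. Without KC872RL it was 1.1. With log2 CPM of Xist as a covariate, the X-linked gene that marks the libraries lacking Y-linked expression, it was 1.03 with an adjusted p of 0.586. On the ketogenic diet the log2 fold change was 1.22 ± 0.53 (edgeR adjusted p = 0.528), and 0.78 without KC913RR. Averaged over the diets it was 1.42 ± 0.38 (edgeR adjusted p = 0.127), which DESeq2 placed past the threshold with an adjusted p of 0.00853, among 2.38% of all genes. Without KC888LL it was 1.57 and edgeR called it, among 4.96% of all genes.

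Close copies could share reads with Serpina3n, since the Serpina3 genes form a family of similar sequence. Of 10 other Serpina3 genes in the table, 1 passed the filter. This was Serpina3g, which ranged from 0.0911 to 2.01 CPM in wild type libraries and from 1.35 to 7.40 CPM in knockout libraries, with the highest value in KC934R. Its log2 fold change averaged over the diets was 1.72 ± 0.48 (edgeR adjusted p = 0.136). Serpina3a and Serpina3j were at 0 in every library.

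Lcn2 encodes lipocalin 2, a secreted protein that binds iron carriers of bacteria, and lies at chr2:32384633-32388252 on the minus strand (ENSMUSG00000026822). Its counts were so low that it is described by counts with exact Poisson intervals, which cover counting error only. Wild type libraries on the standard diet held 3, 0, 4 and 0 counts (KC890RL, KC894RLL, KC897RR, KC900RLL) and those on the ketogenic diet 0, 6, 4 and 2 counts (KC842L, KC843RL, KC844RR, KC846L). Knockout libraries on the standard diet held 47 counts in KC872RL, 68 in KC873RR, 0 in KC888LL and 8 in KC893RL. With the ketogenic diet the knockout held 2, 2, 0 and 4 counts (KC913RR, KC916RRL, KC934R, KC935LL). Lcn2 was therefore clear of the wild type in 2 libraries only, both from the knockout on the standard diet.

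Over total counts, Lcn2 was 4.04 CPM (95% interval 3.14 to 5.12) in KC873RR and 2.44 (1.79 to 3.24) in KC872RL. The highest wild type value was 0.32 (0.117 to 0.697) in KC843RL, and the value of 0.508 (0.219 to 1.00) in KC893RL overlapped it. The count of 0 in KC888LL has an exact Poisson upper bound of 0.1999 CPM. Lcn2 in KC913RR was 0.13 (0.0158 to 0.471), although that library had the highest level of 7 of the other genes. The same pair of libraries had a summed level of 14 microglia genes of 660.4 CPM each, against 280 to 338 CPM in the other 14 libraries, with 0 of the 14 at 0 in all libraries, and its part in the Lcn2 counts was not tested. Of the 14, 12 had an unadjusted p under 0.05 and were higher in the knockout fed the standard diet, against 7.64% of all genes, and 0 passed the adjusted threshold. Spp1, a secreted ligand of CD44, stood at 22.1 CPM in KC872RL and 13.1 CPM in KC873RR, against at most 1.27 CPM elsewhere. A list of 11 neutrophil and monocyte genes had 0 members past the filter, and its summed level was between 0.433 and 1.91 CPM in every library.

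Timp1 encodes a secreted inhibitor of matrix metalloproteinases and lies at chrX:20870166-20874735 on the plus strand (ENSMUSG00000001131), inside Syn1, which is read from the opposite strand and shares 0 exon bases with it. The 8 wild type libraries held 0.956 to 2.18 CPM. Knockout libraries on the standard diet read 4.98 (KC872RL), 2.16 (KC873RR), 1.41 (KC888LL) and 1.33 CPM (KC893RL). Under ketogenic feeding they read 12.7 (KC913RR), 1.35 (KC916RRL), 2.597 (KC934R) and 1.47 CPM (KC935LL). Timp1 thus left the wild type range in 3 libraries, and the 190 counts in KC913RR gave 12.4 CPM over total counts (exact Poisson 95% interval 10.7 to 14.3). The fitted log2 difference against wild type was 0.86 ± 0.70 on the standard diet and 1.56 ± 0.67 on the ketogenic diet (edgeR adjusted p = 0.622 and 0.508), and the latter was 0.26 without KC913RR.

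Cp encodes ceruloplasmin, a copper protein that oxidises iron, and lies at chr3:19957054-20009145 on the plus strand (ENSMUSG00000003617). It shares 108 exon bases with Hps3 on the other strand, and whether counting used strand is not given in the sources used here, so reads from these bases could belong to either gene. Cp, like Lcn2, was not raised in KC913RR. Wild type libraries read 13.1, 8.95, 8.69 and 6.86 CPM on the standard diet (KC890RL, KC894RLL, KC897RR, KC900RLL) and 8.99, 9.45, 10.02 and 6.28 CPM on the ketogenic diet (KC842L, KC843RL, KC844RR, KC846L). Knockout libraries read 13.3, 11.4, 10.6 and 11.3 CPM on the standard diet (KC872RL, KC873RR, KC888LL, KC893RL) and 8.23, 8.002, 8.07 and 10.9 CPM on the ketogenic diet (KC913RR, KC916RRL, KC934R, KC935LL). KC872RL alone exceeded every wild type library, by a small margin. KC913RR, the library next to it in Gfap, was inside the wild type range. Its log2 fold change was 0.31 ± 0.17 on the standard diet and 0.03 ± 0.18 on the ketogenic diet (edgeR adjusted p = 0.44 and 0.973), the former 0.51 without KC890RL and 0.19 without KC900RLL. Summed choroid plexus genes, a tissue rich in secreted carrier proteins, reached 1097 CPM in KC894RLL and 1064 CPM in KC844RR, where Cp was at 8.95 and 10.02 CPM, inside the range of the other wild type libraries.

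Of the membrane proteins, Cd44 showed the widest range. It encodes the hyaluronan receptor and lies at chr2:102811141-102901665 on the minus strand (ENSMUSG00000005087, 19 exonic intervals). Wild type libraries ranged from 2.73 to 5.34 CPM. Knockout libraries on the standard diet read 16.1 (KC872RL), 12.8 (KC873RR), 4.76 (KC888LL) and 6.79 CPM (KC893RL), so 3 of 4 were above every wild type library. Under ketogenic feeding 1 library stood apart: 47.1 (KC913RR), 3.51 (KC916RRL), 5.03 (KC934R) and 3.82 CPM (KC935LL). Its fitted log2 fold change against wild type was 1.11 ± 0.78 on the standard diet and 1.98 ± 0.78 on the ketogenic diet (edgeR adjusted p = 0.557 and 0.489), and the latter was 0.15 without KC913RR.

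Osmr encodes the oncostatin M receptor chain and lies at chr15:6813577-6874969 on the minus strand (ENSMUSG00000022146). It ranged from 4.48 to 6.66 CPM in wild type libraries. The knockout on the standard diet read 12.9 (KC872RL), 14.7 (KC873RR), 4.00 (KC888LL) and 7.23 CPM (KC893RL). Its counterpart on the ketogenic diet read 24.5 (KC913RR), 5.91 (KC916RRL), 6.41 (KC934R) and 4.405 CPM (KC935LL). The same 4 libraries as for Cd44 were above the wild type, and KC888LL and KC935LL were below all of it. The fitted log2 fold change was 0.78 ± 0.51 on the standard diet and 1.03 ± 0.51 on the ketogenic diet (edgeR adjusted p = 0.517 and 0.566), the latter 0.15 without KC913RR.

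Emp1 encodes a small membrane protein of the PMP22 family and lies at chr6:135362545-135383173 on the plus strand (ENSMUSG00000030208). Wild type libraries ranged from 1.44 to 3.02 CPM. Knockout libraries read 6.04, 3.44, 2.43 and 2.47 CPM on the standard diet (KC872RL, KC873RR, KC888LL, KC893RL). They read 16.1, 1.57, 3.54 and 1.64 CPM on the ketogenic diet (KC913RR, KC916RRL, KC934R, KC935LL). The 4 libraries above the wild type were the 4 with the most Gfap. The log2 fold change was 0.72 ± 0.65 on the standard diet and 1.57 ± 0.63 on the ketogenic diet (edgeR adjusted p = 0.661 and 0.492), the latter 0.26 without KC913RR.

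The 3 genes whose products are mainly intracellular did not share one pattern. Aspg encodes an asparaginase and lies at chr12:112106679-112127559 on the plus strand (ENSMUSG00000037686). It ranged from 2.54 to 4.59 CPM in wild type libraries. Knockout libraries on the standard diet read 10.97 (KC872RL), 10.2 (KC873RR), 3.84 (KC888LL) and 8.56 CPM (KC893RL), and on the ketogenic diet 19.3 (KC913RR), 3.37 (KC916RRL), 6.91 (KC934R) and 2.94 CPM (KC935LL). Aspg was above every wild type library in the same 5 knockout libraries as Serpina3n. Its log2 fold change was 1.25 ± 0.52 under standard feeding, 1.09 ± 0.51 under ketogenic feeding and 1.17 ± 0.36 averaged over them (edgeR adjusted p = 0.302, 0.546 and 0.161). Without KC913RR the value on the ketogenic diet was 0.23 and the average 0.74.

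Hspb1 encodes a small heat shock protein that protects other proteins from aggregation and lies at chr5:135887919-135889563 on the plus strand (ENSMUSG00000004951). Wild type libraries read 3.39, 2.49, 2.30 and 2.88 CPM on the standard diet (KC890RL, KC894RLL, KC897RR, KC900RLL) and 2.54, 2.27, 2.53 and 2.87 CPM on the ketogenic diet (KC842L, KC843RL, KC844RR, KC846L). Knockout libraries on the standard diet read 2.57 (KC872RL), 3.67 (KC873RR), 2.92 (KC888LL) and 3.74 CPM (KC893RL). Those on the ketogenic diet read 20.8 (KC913RR), 3.29 (KC916RRL), 3.37 (KC934R) and 3.88 CPM (KC935LL). KC872RL, the library richest in Gfap and Serpina3n, thus had a wild type level of Hspb1, while KC913RR stood far above the rest. On the ketogenic diet the 4 knockout libraries were all above the 4 wild type libraries, as was the case for 2.00% of all tested genes. The wild type library KC890RL on the standard diet (3.39 CPM) was above KC916RRL and KC934R. The log2 fold change on the ketogenic diet was 1.61 ± 0.51 (edgeR adjusted p = 0.417), and 0.46 without KC913RR. On the standard diet the log2 fold change was 0.21 ± 0.53 (edgeR adjusted p = 0.894), 0.33 without KC890RL and 0.14 without KC897RR.

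S100a10 encodes the annexin A2 partner that carries channels and receptors to the cell surface and lies at chr3:93555080-93564643 on the plus strand (ENSMUSG00000041959). Its level ran from 3.55 to 7.09 CPM in wild type libraries and from 4.57 to 7.75 CPM in knockout libraries on the standard diet. The ketogenic-diet knockout read 16.5 (KC913RR), 5.38 (KC916RRL), 9.28 (KC934R) and 5.64 CPM (KC935LL). Of these 4, 2 were above every wild type library. The log2 fold change was -0.09 ± 0.31 on the standard diet and 0.82 ± 0.30 on the ketogenic diet (edgeR adjusted p = 0.925 and 0.451), the latter 0.39 without KC913RR.

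**Figure D1:**
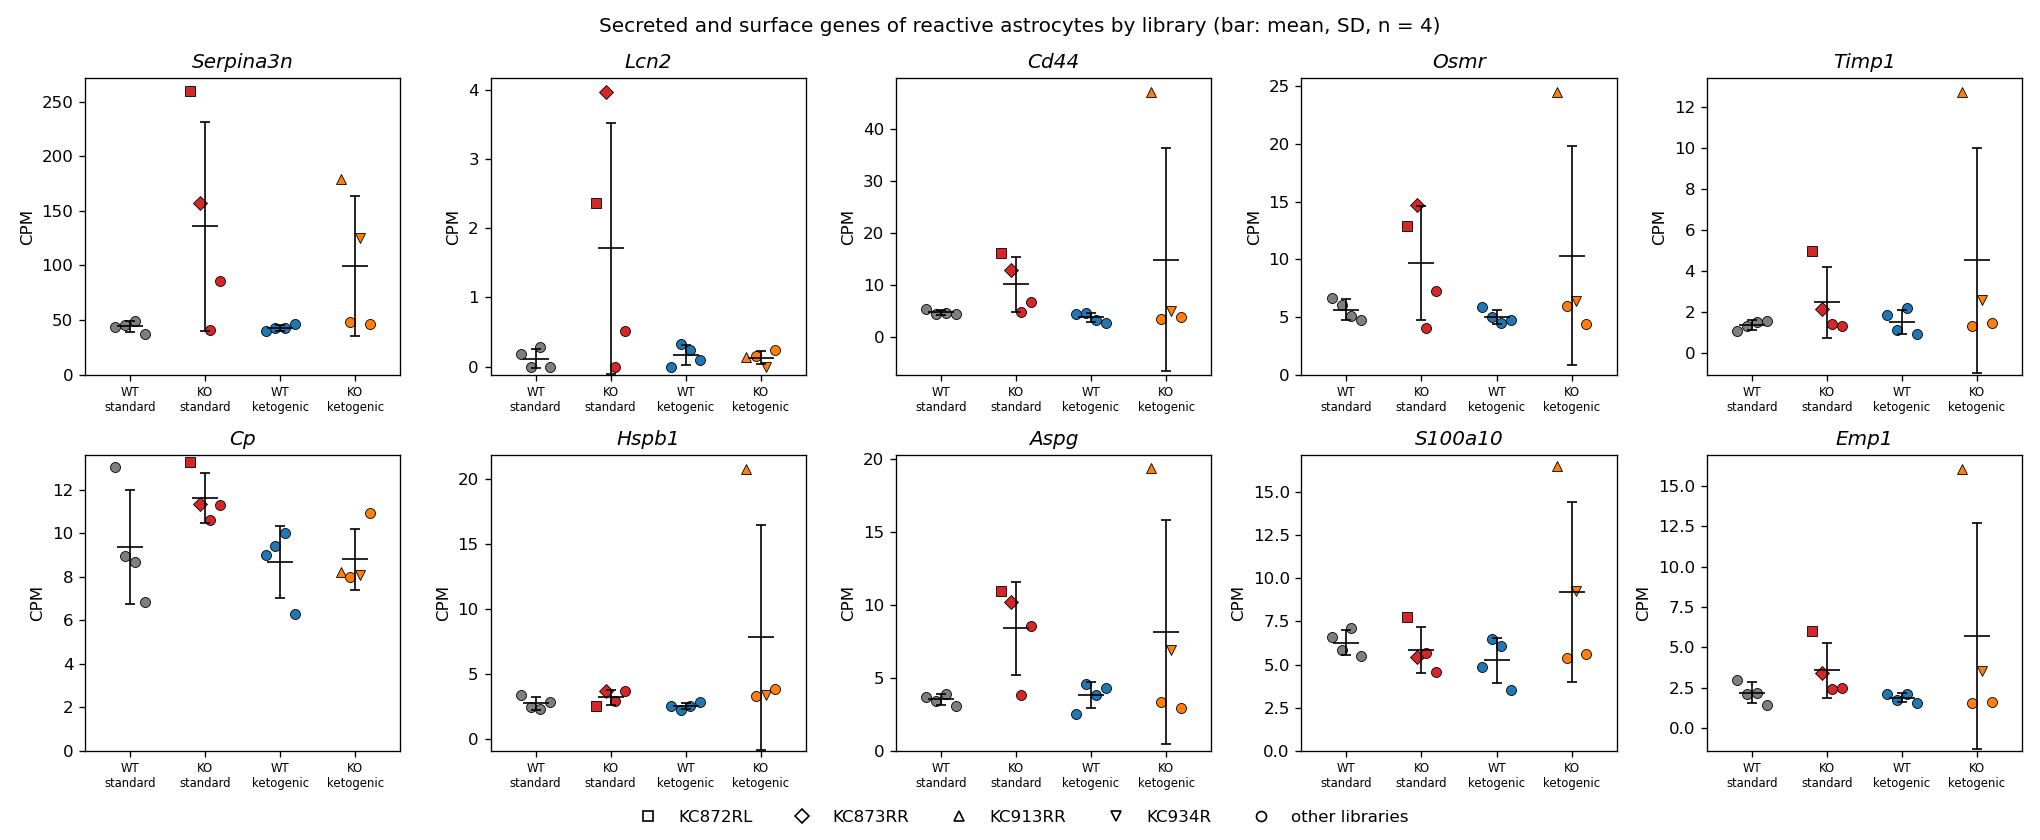
Level of each of the 10 genes in CPM (y axis, linear, with its own scale per gene) in the 16 libraries, by genotype (WT wild type, KO knockout) and diet on the x axis. Points are libraries, the horizontal bar is the mean and the whiskers are 1 SD (n = 4); KC872RL and KC873RR are high for Serpina3n, Lcn2, Cd44, Osmr and Aspg, and KC913RR for 8 genes but not for Lcn2 and Cp.

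Read by library, the knockout animals fell into different profiles. KC872RL was above all 8 wild type libraries in 9 of the 10 genes, KC913RR in 8, KC873RR in 7, KC893RL in 6, KC934R in 5, KC935LL in 1, and KC888LL and KC916RRL in 0. Over all tested genes, the share above all wild type libraries was 23.6%, 23.8%, 19.6%, 17.9%, 18.8%, 10.96%, 7.94% and 12.4% in the same order. KC913RR held the highest value of 7 genes, KC872RL of Serpina3n and Cp, and KC873RR of Lcn2. The summed general astrocyte genes were lowest in KC913RR, at 5821 CPM against 6504 to 8166 CPM elsewhere. So were the summed oligodendrocyte genes, at 2052 CPM against 2760 to 6658 CPM. The part of these sums in the profile of KC913RR was not tested. KC872RL and KC873RR share the standard diet and Ddx3y expression, and the part of the latter in their profile was not tested.

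On the log2 scale against the wild type median, KC872RL was higher than KC913RR for Serpina3n (2.58 against 2.04) and Lcn2 (3.30 against -0.01). KC913RR was the higher of the pair for Cd44 (3.37 against 1.83), Timp1 (3.05 against 1.71), Emp1 (2.85 against 1.46) and Hspb1 (2.98 against 0.02). These are single libraries of different diets, so the differences have no replicate check.

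**Figure D2:**
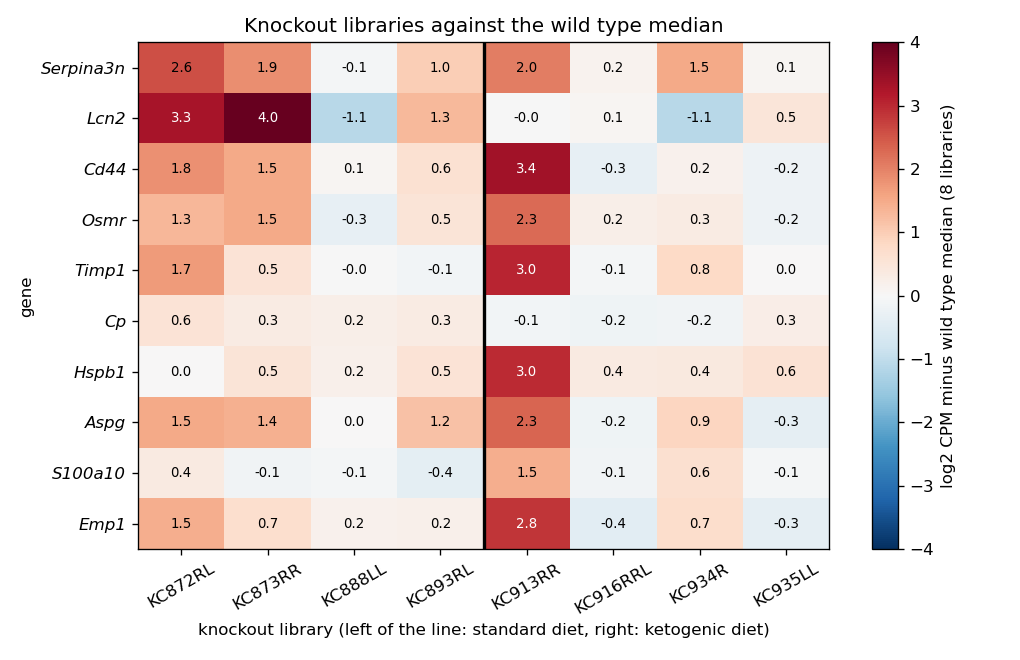
Log2 CPM of each gene (rows) in each knockout library (columns, standard diet left of the line and ketogenic diet right of it) minus the median over the 8 wild type libraries, printed in each cell and shown by colour. KC913RR has high values for Cd44, Timp1, Hspb1 and Emp1 but none for Lcn2, whereas KC872RL and KC873RR have their highest values for Lcn2; the Lcn2 row rests on few counts.

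The first comparison, of the genotypes under standard feeding, asks whether the mutation raised these genes in untreated animals. By edgeR, 0 of the 9 tested genes passed an adjusted p of 0.05, where 0.00572% of all tested genes did. At an unadjusted p under 0.05, 2 of the 9 were higher, Serpina3n and Aspg, where 7.64% of all genes were. With the Xist covariate it was 0 of 9 (4.55% of all genes), 1 of 9 without KC872RL, KC873RR, KC893RL, KC894RLL or KC900RLL (4.11% to 7.31%), and 4 of 9 with only the groups compared (8.76%). Full separation of the groups in CPM was found for 0 of the 9, against 2.97% of all genes in the higher direction. Without KC888LL it was found for 4 of the 9, Serpina3n, Cd44, Osmr and Aspg, against 10.8% of all genes. It was 3 without the wild type library KC890RL (5.08%) and 1 without KC897RR (4.77%). The fitted value was positive for 8 of the 9, with a median of 0.78 beside 0.00441 over all tested genes. The median was 0.34 without KC872RL, 0.46 with the Xist covariate and 1.04 without KC888LL. Without KC888LL the fitted values were 1.35 for Cd44, 1.04 for Osmr, 1.05 for Timp1, 0.86 for Emp1 and 1.49 for Aspg, none past the threshold. Without KC872RL they were 0.25 for Timp1 and 0.34 for Emp1, and without KC873RR 0.52 for Osmr. With the Xist covariate they were 0.41 for Osmr and 0.46 for Emp1. DESeq2 and limma-voom also called 0, where they called 0.967% and 0.0114% of all genes.

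On the ketogenic diet, knockout against wild type likewise gave 0 of 9 past the adjusted threshold by edgeR, DESeq2 and limma-voom, where the tools called 0.0172%, 0.258% and 0.0286% of all genes. At an unadjusted p under 0.05, 6 of the 9 were higher (Serpina3n, Cd44, Timp1, Hspb1, S100a10 and Emp1), against 5.24% of all genes. This count was 1 without KC913RR, where the share over all genes was 3.73%. It was 1 without the wild type library KC846L, against 3.61%, 3 without the wild type library KC843RL (4.91%), and 8 without KC916RRL (6.99%) or KC935LL (7.43%). With limma-voom it was 2 (4.95%), and with only the groups compared also 2 (3.63%). Non-overlapping CPM was found for 1 of the 9, Hspb1, against 2.00% of all genes, for 2 without KC846L (3.23%) and for 3 without KC935LL (4.13%). The 9 fitted values were all positive, with a median of 1.22 beside 0.00348 over all genes. Without KC913RR the median was 0.26, and without KC846L or KC935LL 8 of the 9 were positive. By limma-voom the values were 1.02 for Cd44, 0.65 for Osmr, 0.98 for Timp1, 1.07 for Hspb1, 0.69 for Aspg and 0.88 for Emp1.

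With genotype averaged over the diets, 0 of the 9 passed by edgeR, where 0.0973% of all genes did, and 1 by DESeq2, Serpina3n, where that tool called 2.38% of all genes. At an unadjusted p under 0.05, 7 of the 9 were higher, all but Cp and S100a10, against 8.14% of all genes. The count was 4 without KC913RR (8.21%), 4 without KC872RL (6.17%) and 3 with limma-voom (7.54%). For 0 of the 9 did all knockout libraries exceed all wild type libraries, against 0.0687% of all genes. The median was 1.15, beside 0.00704 over all genes, and 0.49 without KC913RR. The averaged comparison uses the libraries of the other 2 and is not separate evidence. The genes were chosen with earlier results known and often rose in the same libraries, so these counts are not tests of the set.

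The comparison of ketogenic with standard diet in the knockout asks whether treated mutants differ from untreated ones, the question raised by the series title. Here 0 of the 9 passed by edgeR, DESeq2 or limma-voom, where edgeR called 1.16%, DESeq2 3.88% and limma-voom 0.836% of all genes. The edgeR share was 6.18% without KC888LL, 0.158% without KC872RL and 0.0401% with the Xist covariate. At an unadjusted p under 0.05, Hspb1 and S100a10 were higher (2 of 9, against 7.83% of all genes) and Cp was lower (1 of 9, against 9.10%). Hspb1 had a log2 fold change of 1.28 ± 0.50, S100a10 of 0.65 ± 0.30 and Cp of -0.40 ± 0.18, with edgeR adjusted p of 0.216, 0.286 and 0.251. Without KC913RR these values were 0.13 for Hspb1 and 0.21 for S100a10. The count of 2 was 0 without KC913RR (6.37%) or KC888LL (10.9%) and 1 without KC872RL, KC873RR, KC893RL or KC934R (4.59% to 8.83%). It was 0 with limma-voom (7.57%) or only the groups compared (4.74%), and 1 with DESeq2 (8.22%), no filter (4.64%) or the Xist covariate (4.76%). The count of 1 lower was 3 without KC913RR (8.02% of all genes). It was 0 without KC872RL (5.79%), KC916RRL (8.21%) or KC934R (9.6%), and with the Xist covariate (5.87%). Without KC913RR the balance was thus 0 higher and 3 lower. Serpina3n had -0.45 ± 0.52 (edgeR adjusted p = 0.711).

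The direction of the diet difference in the knockout rested on single libraries for most of the genes. Without KC913RR the log2 fold change was -1.29 for Cd44, -0.80 for Osmr, -0.45 for Timp1, -0.67 for Emp1, -0.92 for Aspg and -0.89 for Serpina3n, none past the threshold. Without KC872RL it was 0.87 for Cd44, 1.46 for Timp1, 1.03 for Emp1 and 0.079 for Serpina3n. Without KC888LL it was -0.75 for Serpina3n, 0.31 for Cd44, -0.18 for Osmr and -0.29 for Aspg. With the Xist covariate, Serpina3n was at 0.29 and Aspg at 0.28. Ddx3y was expressed in 2 of the 4 standard diet knockout libraries and in 0 of the 4 on the ketogenic diet, and they were the 2 with the most Serpina3n, Cd44, Osmr and Aspg on the standard diet. The 2 without Ddx3y, KC888LL and KC893RL, had 40.7 and 85.5 CPM of Serpina3n, against 45.9 to 179 CPM in the ketogenic-diet knockout.

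In the wild type, fitted values of the ketogenic over the standard diet lay between -0.33 ± 0.83 (SE) for Cd44 and 0.15 ± 0.73 for Timp1. Of the 9 values, 7 were negative. The SE ran from 0.18 for Cp to 0.83 for Cd44, so a lack of calls does not show that the diet left the genes unchanged. Of the 9, 0 passed by edgeR (0.0114% of all genes), 0 had an unadjusted p under 0.05 (2.44% of all genes higher and 3.01% lower), and 0 passed by DESeq2 (0.0687%) or limma-voom (0%). The interaction of genotype and diet tests whether the genotype difference itself differs between the diets. It gave 0 of 9, and 0% of all genes, past the threshold by edgeR, with 0 of 9 at an unadjusted p under 0.05 (3.38% of all genes higher and 4.09% lower). The latter count was 2 higher without KC916RRL (4.13% of all genes) or KC935LL (4.12%). It was 1 higher with DESeq2 (3.59%), DESeq2 size factors (3.54%) or no robust estimation (3.49%). The same held without KC843RL (3.17%), KC844RR (2.95%), KC872RL (2.34%) or KC934R (3.66%). Without KC890RL or KC913RR, 1 gene was lower (3.88% and 3.63% of all genes). S100a10 (0.91 ± 0.43, edgeR adjusted p = 0.669) and Hspb1 (1.39 ± 0.73, edgeR adjusted p = 0.707) came nearest, and without KC913RR they were at 0.47 and 0.25. DESeq2 (0.0401% of all genes) and limma-voom (0%) called 0 as well.

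**Figure D3:**
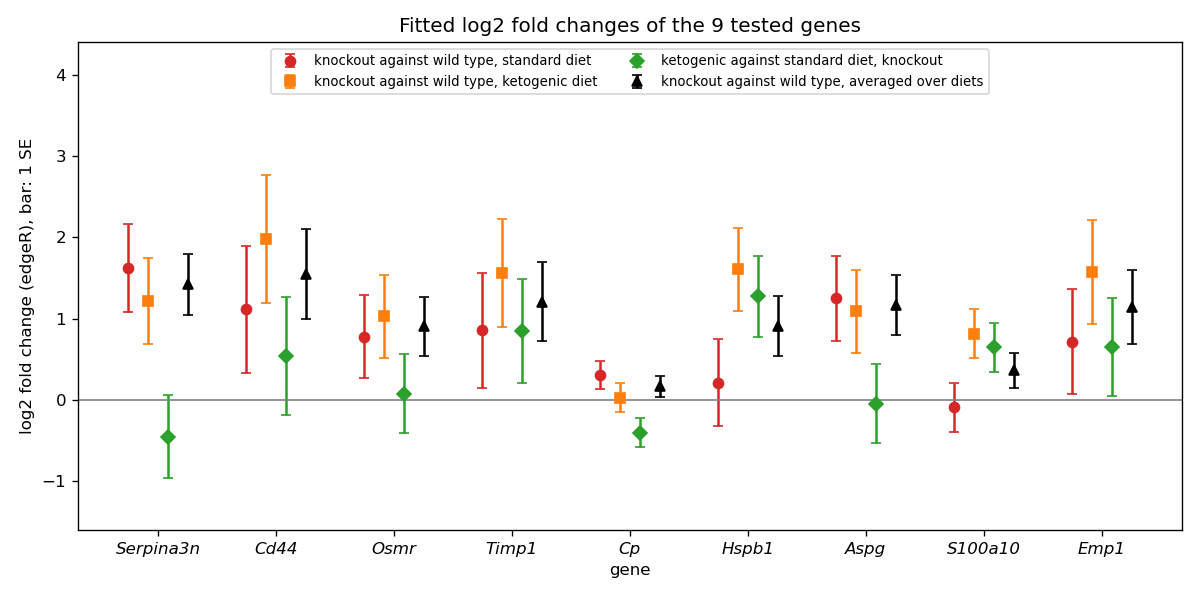
Fitted log2 fold change (y axis) of the 9 tested genes (x axis) in 4 comparisons, with bars of 1 SE from edgeR. Values against wild type are positive for all but S100a10 on the standard diet, and the bars of the diet comparison in the knockout (green) leave out 0 for Hspb1, S100a10, Cp, Timp1 and Emp1 only.

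The spread between libraries of one group was itself wider for these genes in the knockout. The median SD of log2 CPM over the 9 tested genes was 0.218 (wild type) and 0.683 (knockout) under standard feeding. It was 0.298 and 1.22 on the ketogenic diet. Over all tested genes the medians were 0.132, 0.154, 0.134 and 0.187 in the same order of groups. Without KC888LL the knockout median under standard feeding was 0.537, and without KC872RL 0.356. Without KC913RR the one under ketogenic feeding was 0.429. The wild type median under ketogenic feeding was 0.195 without KC842L and 0.188 without KC846L. Serpina3n on the standard diet had an SD of 0.164 in the wild type and 1.15 in the knockout, the latter larger than 99.5% of tested genes. It was 0.803 in the knockout without KC888LL and 0.0893 in the wild type without KC900RLL. Cd44 on the ketogenic diet had 0.348 and 1.76, the latter larger than 99.9%, and 0.263 in the knockout without KC913RR. Cp was the exception, at 0.380 in the wild type and 0.137 in the knockout on the standard diet, or 0.207 in the wild type without KC890RL and 0.0545 in the knockout without KC872RL. These widths were not tested.

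**Figure D4:**
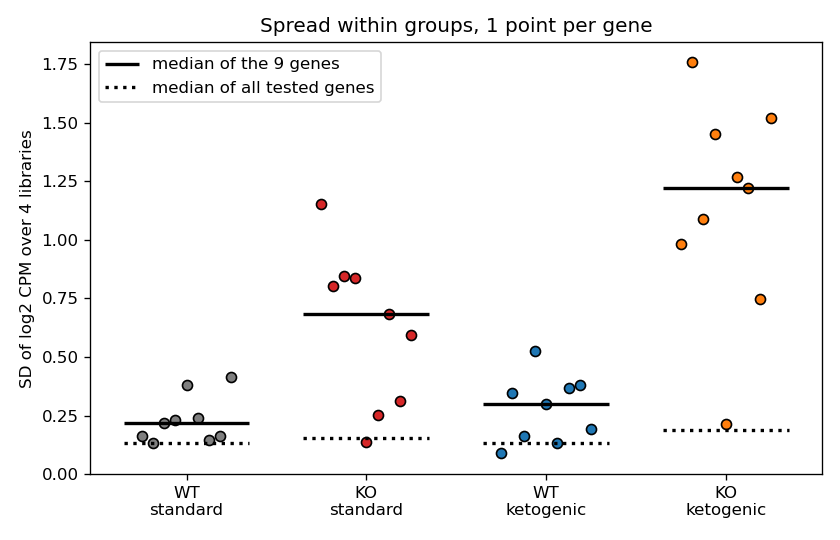
SD of log2 CPM over the 4 libraries of a group (y axis) for each of the 9 tested genes (points), by group on the x axis. Solid lines are the medians of the 9 genes (0.218, 0.683, 0.298 and 1.22 from left to right) and dotted lines the medians of all tested genes.

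Levels can be compared between genes only per length. In CPM per kilobase of exon, the median over the 8 wild type libraries was 21.0 for Serpina3n, 4.92 for S100a10, 2.46 for Hspb1, 1.62 for Timp1 and 1.07 for Aspg. It was 0.938 for Cp, 0.658 for Cd44, 0.417 for Osmr, 0.358 for Emp1 and 0.0533 for Lcn2. The wild type ranges of neighbours in this order overlapped from S100a10 down to Emp1, so neighbours among those 8 genes are not told apart by their ranges. Genes further apart can be, as S100a10 (2.93 to 5.85) lay wholly above Timp1 (1.08 to 2.46) and Hspb1 (2.20 to 3.29) above Aspg (0.721 to 1.30). Serpina3n (18.2 to 24.0) lay clear above them and Lcn2 (at most 0.123) clear below. Ranges ignore that the genes were read in the same libraries. Within each wild type library, S100a10 was above Hspb1, Hspb1 above Timp1, Cp above Cd44, Cd44 above Osmr and Osmr above Emp1. The order of Timp1 and Aspg, and that of Aspg and Cp, differed between libraries.

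Beside the 10 genes, the gp130 and STAT3 pathway, from ligands and receptors to targets, was read from a list of 19 genes, 15 of which passed the filter. In each genotype comparison and in the diet comparison of the knockout, 0 of the 15 passed the adjusted threshold by edgeR. Its median log2 fold change averaged over the diets was 0.10, with 14 of 15 positive, beside 0.00704 over all genes. Il6st, which encodes gp130, ranged from 96.3 to 157 CPM with its highest value in KC872RL, and Lifr from 56.0 to 76.5 CPM. Socs3, a STAT3 target that feeds back on the receptor, stood at 18.3 CPM in KC913RR and between 0.455 and 3.67 CPM in the other libraries. In the same library Lif, a gp130 cytokine, was at 12.98 CPM against at most 1.12 elsewhere, and Stat3 was at 100.2 CPM against at most 67.9. Other genes of the list had their lowest value in KC913RR. These included Cntfr (38.1 CPM against at least 38.8 elsewhere), Il11ra1 (13.9 against at least 16.9) and Tyk2 (20.1 against at least 24.6). The ligands Osm, Il6 and Il11 did not pass the filter. In KC913RR, Osm and Il6 were at 0 and Il11 was at 0.87 CPM, its highest value, with 0.823 CPM in KC916RRL.

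Other genes of the pan-reactive and A2 astrocyte lists gave 0 of 10 tested past the threshold in each of those comparisons, with a median averaged over the diets of 0.67. KC913RR was again far above the other libraries for Ptx3, a secreted pattern recognition protein (37.5 CPM against at most 1.96), and S1pr3, a sphingosine phosphate receptor (63.6 against at most 14.3). Tgm1, a crosslinking enzyme, was high in KC913RR (14.1), KC872RL (8.25) and KC873RR (5.19) and at most 1.14 CPM elsewhere. Of 11 tested A1 astrocyte genes, 0 passed in the genotype comparisons and 2 fell on the ketogenic diet in the knockout, where 1.16% of all genes were called. The 14 microglia genes moved with them in that comparison: 14 of 14 had lower values, 13 with an unadjusted p under 0.05 (9.10% of all genes), the median was -0.79 and 1 was called, and their part in these calls was not tested. The 2 A1 genes called were Fbln5, a matrix protein gene (-1.11 ± 0.25, edgeR adjusted p = 0.0394), and Srgn, a proteoglycan gene (-0.65 ± 0.15, edgeR adjusted p = 0.0429). Fbln5 passed in 2 and Srgn in 3 of 8 fits that left out a library, and without KC872RL they were at -0.81 and -0.62. Both calls were lost without KC872RL, KC873RR, KC916RRL, KC913RR or KC934R, that of Fbln5 also without KC935LL, and both with the Xist covariate (-0.85 and -0.56, edgeR adjusted p = 0.305 and 0.285).

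Partners of the secreted products included 12 tested genes for iron handling and lipocalin uptake and 12 tested metalloproteinase and TIMP genes, of which 0 passed in the genotype comparisons or in the diet comparison of the knockout. Hmox1, which degrades haem, ranged from 2.55 to 4.21 CPM in wild type libraries and read 8.95, 6.18, 3.30 and 5.58 CPM in the knockout on the standard diet (KC872RL, KC873RR, KC888LL, KC893RL). It read 6.82, 2.09, 5.25 and 2.82 CPM in the knockout on the ketogenic diet, which puts the same 5 libraries as for Serpina3n above the wild type. Timp2 ranged from 119.8 to 348 CPM and Timp3 from 58.1 to 79.6 CPM, and neither reached its highest value in KC913RR. Mmp14, a membrane metalloproteinase, had a log2 fold change of -0.41 ± 0.11 for the knockout over the wild type under standard feeding (edgeR adjusted p = 0.192).

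Among 12 tested ligands and partners of CD44, 0 passed in those comparisons. Msn encodes moesin, which ties CD44 to the cell cortex, and stood at 84.4 CPM in KC913RR, 47.6 in KC872RL and 44.3 in KC873RR, against 19.1 to 28.1 CPM elsewhere. Among the hyaluronan synthase genes, Has2 was likewise highest in KC913RR, at 2.41 CPM against at most 1.11 elsewhere, while Has1 and Has3 were at 1.003 and 4.88 CPM there, not their highest values. Of 11 tested annexin and S100 genes, 11 had positive values averaged over the diets and 0 passed. Anxa2, the partner of S100a10, was at 18.3 CPM in KC913RR and 11.97 in KC872RL, against at most 9.01 elsewhere, and its log2 fold change averaged over the diets was 0.93 ± 0.28 (edgeR adjusted p = 0.145).

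Of the relatives of the 10 genes, 3 fell on the ketogenic diet in the knockout. S100b, a relative of S100a10, had a log2 fold change of -0.59 ± 0.12, Pmp22, a relative of Emp1, of -0.70 ± 0.13, and Cryab, a relative of Hspb1, of -0.68 ± 0.14 (edgeR adjusted p = 0.0291, 0.0179 and 0.0266). Each was 1 gene called of its list, of 11, 3 and 3 tested, where 1.16% of all genes were called. The calls held in 4 of 8 fits that left out a library for S100b and Cryab and in 5 of 8 for Pmp22. Without KC872RL, KC873RR or KC916RRL all 3 calls were lost, at -0.47, -0.61 and -0.60 without the first of these, and S100b and Cryab were also lost without KC913RR. With the Xist covariate the values were -0.47, -0.57 and -0.72 and the edgeR adjusted p was 0.216, 0.13 and 0.0973. Oligodendrocytes express Cryab and Pmp22 too, and the summed level of 11 oligodendrocyte genes was 2052 to 3859 CPM in the knockout on the ketogenic diet against 5312 to 5886 CPM on the standard diet, with 8 of the 11 called lower. Its part in these calls was not tested. With the Xist covariate, 7 genes of the whole table were called in this comparison, so not all of the 8 oligodendrocyte calls were kept.

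Hspb6, another small heat shock gene, did not share the pattern of Hspb1. It read 10.7, 6.002, 2.06 and 4.88 CPM in the knockout on the standard diet (KC872RL, KC873RR, KC888LL, KC893RL) and 11.4, 1.87, 7.46 and 2.35 CPM on the ketogenic diet (KC913RR, KC916RRL, KC934R, KC935LL). Wild type libraries had 2.16 to 3.57 CPM, so the 5 libraries above them were those of Serpina3n and Aspg. The log2 fold change of Hspb6 averaged over the diets was 1.1 ± 0.38 (edgeR adjusted p = 0.196).

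**Figure D5:**
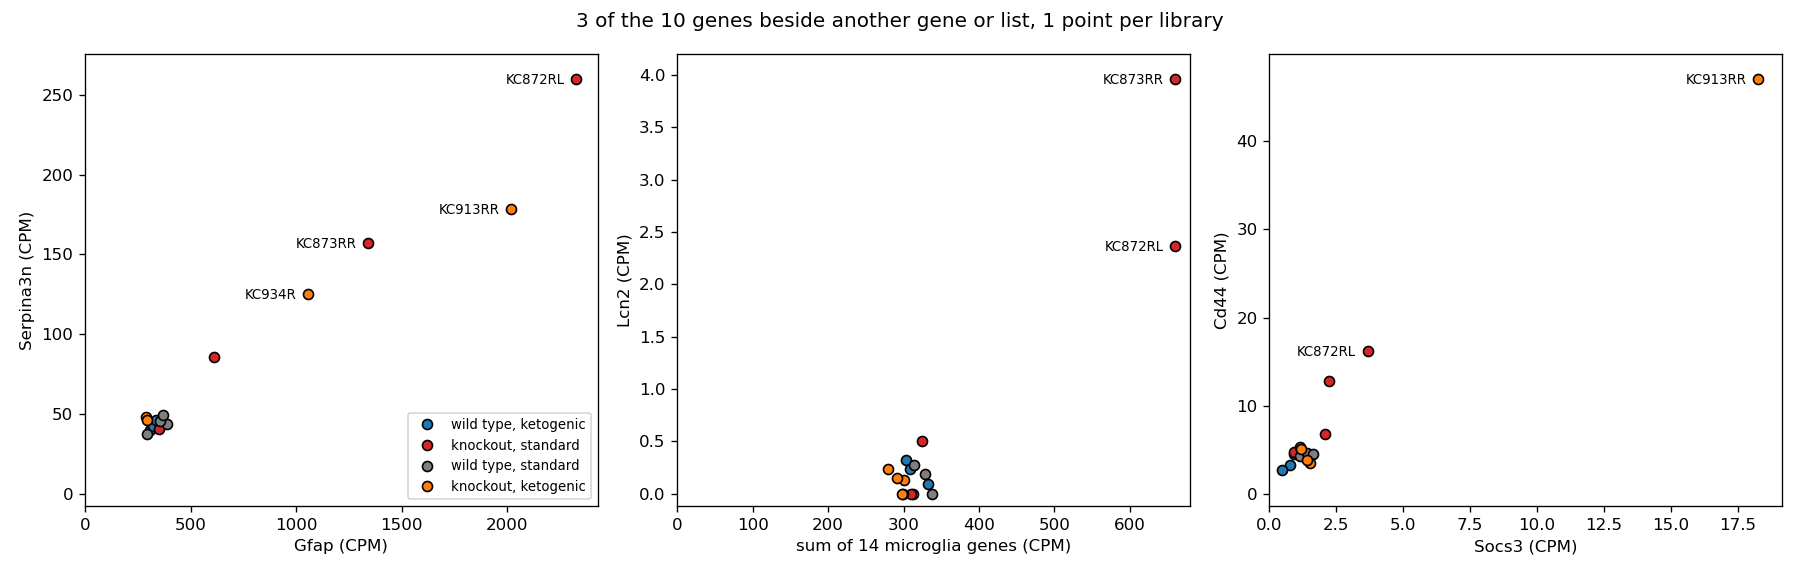
Each point is a library, coloured by group, with CPM on both axes: Serpina3n against Gfap (left), Lcn2 against the sum of 14 microglia genes (middle) and Cd44 against Socs3 (right). Serpina3n is high in the libraries with high Gfap, Lcn2 in the 2 libraries with a microglia sum of 660.4 CPM, and Cd44 is highest where Socs3 is at 18.3 CPM; libraries with the high values are labelled.

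A further 10 genes were picked for likeness to the mean log2 CPM of the 9 tested genes, by Spearman's rho over the 16 libraries among 15412 tested genes with a mean of at least 1 CPM. They were Fam111a (rho 0.974), Col27a1 (0.95), Flnc (0.938), Mylk (0.929), Adamtsl3 (0.926), Igfbp7 (0.918), P4ha3 (0.912), Ufsp1 (0.909), Fam129a (0.906) and Cd81 (0.906). These values describe 16 libraries in 4 groups of genotype and diet, and any shared preparation enters them too. The genes were chosen for these values. Flnc, an actin crosslinker gene, reached 26.1 CPM in KC913RR, 13.6 in KC872RL and 11.3 in KC873RR, against 2.14 to 5.09 CPM in wild type libraries. P4ha3, a collagen hydroxylase subunit gene, reached 38.5 CPM in KC872RL, 26.3 in KC913RR and 24.6 in KC873RR, against 6.88 to 12.4 CPM in wild type libraries. Fam111a, the first in this order, lay between 0.41 and 1.53 CPM in wild type libraries and peaked at 3.21 CPM in KC913RR and 3.12 CPM in KC872RL.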

How the data were processed

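The authors deposited 1 table of raw counts per gene for the 16 libraries, and the values are whole numbers with totals that differ between libraries. The submitters' processing notes name mm10 and DESeq2, while the aligner, the counting program, the annotation and the use of strand are not given in the sources used here. Column names give an animal tag, genotype and diet, so each library was assigned to its group only. Of the 49315 identifiers, 49056 were in GENCODE M21 (GRCm38), which gave positions and exon lengths.

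Genes were filtered with filterByExpr by group, and 17469 were fitted in edgeR 4.0.16 (R 4.3.3) with TMM factors, robust quasi-likelihood dispersions and 1 coefficient per group over all 16 libraries (12 residual degrees of freedom). Tests were two-sided. Benjamini-Hochberg adjustment covered every tested gene, and an adjusted p under 0.05 was called. Standard errors come from the F statistic, and a prior count of 2 entered log2 CPM. The fit was tested on simulated data, and the outcome of that test is not given here. Rows with no gene name (174) held at most 0.0256% of the counts of a library.

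All 10 genes, Kcna1 and Gfap were named whatever their values. Also named were at most 3 called genes of each list, genes counted in a list, and the 10 most alike by rank correlation. Other list genes that were not called, such as Socs3, Ptx3, Msn, Hmox1 and Hspb6, are named outside this rule for their library values. Many other members of their lists are not shown, so these genes are no separate evidence. The members and lists were chosen with earlier results of these data known. Alternatives were DESeq2 1.42.0, limma-voom (limma 3.58.1), DESeq2 size factors, other filters, no robust estimation, only the groups compared, an Xist covariate, a prior count of 0.5, total counts as library size, and each library left out.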

Additional observations from a re-analysis of the deposited data

Results flagged for a closer look

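In the knockout on the ketogenic diet, a single library stood far from the other 3 of its group in 6 of the 10 genes, by Dixon's criterion for 4 values. The library was KC913RR for 5 of them: Cd44 at 47.1 CPM (the others 3.51 to 5.03), Osmr at 24.5 CPM (4.405 to 6.41), Timp1 at 12.7 CPM (1.35 to 2.597), Hspb1 at 20.8 CPM (3.29 to 3.88) and Emp1 at 16.1 CPM (1.57 to 3.54). For Cp it was KC935LL, at 10.9 CPM (8.002 to 8.23). Chance flags about 1 in 20 groups, and 6 of the 40 combinations of gene and group examined were flagged, all in this one group, where the 5 values from KC913RR come from the same library.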

How the results depend on the processing

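The count of 0 members called held wherever it was recomputed (the averaged and interaction comparisons use all 4 groups, so fitting only the groups compared is no alternative there, and the prior count and total counts do not enter the test), with these exceptions: 1 with DESeq2 for genotype averaged over the diets (Serpina3n), and 0 to 1 when libraries were left out for that comparison and for the genotypes under standard feeding, 1 being Serpina3n without KC888LL. Leaving out single libraries turned the sign of uncalled log2 fold changes between the following lowest and highest values. In the interaction these were Aspg -1.03 and 0.13, Cd44 -0.97 and 1.20, Emp1 -0.46 and 1.24, Osmr -0.63 and 0.52, Serpina3n -0.85 and 0.12, and Timp1 -0.60 and 1.32. For diet in the knockout they were Aspg -0.92 and 0.24, Cd44 -1.29 and 0.87, Emp1 -0.67 and 1.03, Osmr -0.80 and 0.35, Serpina3n -0.89 and 0.079, and Timp1 -0.45 and 1.46. Smaller values turned for Cp between the genotypes under ketogenic feeding (-0.11 and 0.10), S100a10 under standard feeding (-0.26 and 0.013), and, for diet in the wild type, Cp (-0.24 and 0.085), Hspb1 (-0.19 and 0.00021), Serpina3n (-0.11 and 0.015) and Timp1 (-0.060 and 0.33). The Xist covariate turned Serpina3n and Aspg, to 0.42 and 0.22 in the interaction and 0.29 and 0.28 for diet in the knockout. Limma-voom turned Cd44 (-0.31) and Osmr (-0.14) for diet in the knockout. Fitting only the groups compared ended the diet calls of S100b, Pmp22, Cryab, Fbln5 and Srgn, no filter those of S100b and Srgn, and limma-voom those of Fbln5 and Srgn. The cause was not tested beyond the library left out. In alternatives chosen after seeing the data, each library was left out with the scaling kept. Fully separated members then ranged from 0 to 4 under standard feeding and from 1 to 3 under ketogenic feeding, and the median spread of the ketogenic-diet knockout from 0.429 to 1.45. No paired analysis was possible because the columns carry no replicate numbers. Depth limits Lcn2 and Timp1 most, at 0 to 68 and 17 to 190 counts per library.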
